A study of Oryctolagus cuniculus with 20 samples.

Results

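The genes described here are 5 genes of the cardiomyocyte, the contractile cell of heart muscle: TTN (ENSOCUG00000016777), TNNT2 (ENSOCUG00000015634), RYR2 (ENSOCUG00000002425), FHL2 (ENSOCUG00000007967) and PKP2 (ENSOCUG00000000023). They are 5 of 23669 genes in a table of read counts from rabbit tricuspid valves, and all 5 were among the 8683 genes that passed a filter on low counts. They were selected on measured values, because they are listed among the genes that differed between treated and non-treated valves, so their differences from the non-treated valves are given as a description with no test. The question was whether they fell together or whether TNNT2 fell further than the other 4.

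RNA from tricuspid valves of female New Zealand White rabbits, 8 weeks old when treatment began, was sequenced with 5 valves in each of 4 groups. The treated rabbits drank serotonin at 80 mg per kg per day, pergolide at 0.5 mg per kg per day or dexfenfluramine at 20 mg per kg per day for 16 weeks, and the non-treated rabbits drank water without a drug. Pergolide is an ergot derivative and dexfenfluramine an amphetamine-like appetite suppressant, and the study asked how such drugs alter heart valves beside serotonin itself. The dexfenfluramine dose is that of the sample labels and of the study's methods, and another place of the study's text gives a lower one. The doses differed between compounds, so a difference between treatments is one between these dosed groups and not between equal doses. Total counts per valve ran from 3247091 in dexfenfluramine replicate 3 to 5921025 in pergolide replicate 2.

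Valve leaflets are built mainly by interstitial cells that make the matrix, but cardiomyocytes reach into the base of the atrioventricular leaflets, and a dissected valve can carry adjoining heart muscle. In the sarcomere, the protein encoded by TTN, titin, spans from the Z-disc to the M-band as a molecular spring, and cardiac troponin T, encoded by TNNT2, ties the troponin complex to tropomyosin on the thin filament. The ryanodine receptor encoded by RYR2 releases calcium from the sarcoplasmic reticulum to start contraction, FHL2 is a LIM-domain protein that binds titin and signalling proteins, and plakophilin-2, encoded by PKP2, anchors the desmosomes that hold neighbouring cardiomyocytes together.

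TNNT2, the thin-filament gene, separated the 2 drugs from the other groups. Levels are CPM, the reads of a gene relative to the scaled library size, with scaling by the trimmed mean of M-values (TMM). In replicates 1 to 5, TNNT2 stood at 5331, 2817, 1469, 3574 and 2305 CPM in the non-treated valves and at 1892, 5449, 1104, 3407 and 2937 CPM in the serotonin valves. It stood at 677, 676, 857, 385 and 619 CPM in the pergolide valves and at 465, 357, 102, 803 and 519 CPM in the dexfenfluramine valves. All 10 drug valves lay below all 10 non-treated and serotonin valves, the highest drug value being pergolide replicate 3 and the lowest other value serotonin replicate 3. Among all genes tested, 417 (4.80%) had such a separation, and since TNNT2 was chosen for its fall nothing is read from it. The group means were 3099 ± 1464 CPM in non-treated, 2958 ± 1657 in serotonin, 643 ± 170 in pergolide and 449 ± 254 in dexfenfluramine valves (SD, n = 5 each). Non-treated and serotonin valves differed by less than their SD, and pergolide and dexfenfluramine valves by less than the larger SD of the pair. The fewest TNNT2 reads in a valve were 569, for which counting error alone is 4.19%.

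**Figure D1:**
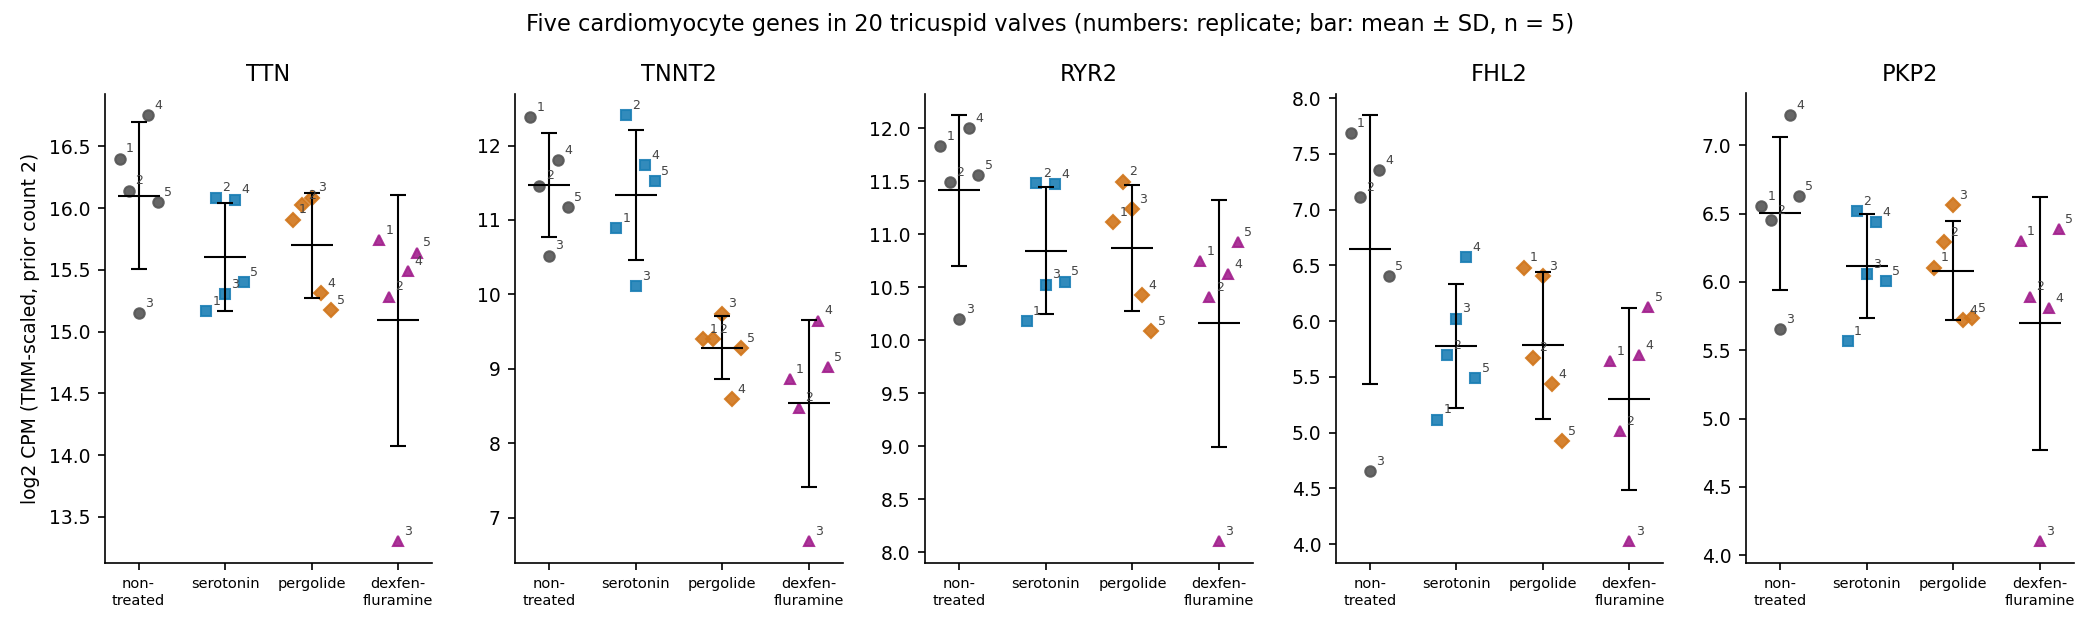
Log2 CPM of TTN, TNNT2, RYR2, FHL2 and PKP2 in each of the 20 valves by group, 1 panel per gene with its own axis; points are valves with their replicate number, and the bars give the mean and SD of 5 valves. TNNT2 in the drug valves ran from 6.68 to 9.74, below the 10.11 to 12.41 of the other valves, while the groups overlap for the other 4 genes.

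TTN, the gene of titin, overlapped between groups. Levels are not compared between genes, because reads also follow the length of a transcript. In the non-treated valves TTN stood at 86498, 72283, 36419, 110639 and 67809 CPM, and in the serotonin valves at 36789, 69502, 40475, 68779 and 43227 CPM. The pergolide valves had 61434, 66585, 69490, 40745 and 36934 CPM, and the dexfenfluramine valves 54821, 39867, 10100, 46022 and 51043 CPM. Of the drug valves 1, dexfenfluramine replicate 3, lay below all non-treated and serotonin valves. Non-treated replicate 3 was the lowest of its group. Group means were 74730 ± 27155 CPM in non-treated, 55038 ± 15126 in pergolide, 51754 ± 16037 in serotonin and 40371 ± 17827 in dexfenfluramine valves (SD, n = 5), and each differed from the next in that order by less than the larger SD of the pair.

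RYR2, the calcium release channel, overlapped between groups as well. It stood at 3642, 2869, 1173, 4090 and 3010 CPM in the non-treated valves and at 1156, 2862, 1470, 2839 and 1501 CPM in the serotonin valves. In the pergolide valves it stood at 2212, 2887, 2409, 1371 and 1084 CPM, and in the dexfenfluramine valves at 1711, 1352, 274, 1577 and 1938 CPM. The same valves, non-treated replicate 3 and dexfenfluramine replicate 3, had low values, and dexfenfluramine replicate 3 lay below every other valve. The mean was 2957 ± 1112 CPM in non-treated, 1966 ± 819 in serotonin, 1993 ± 747 in pergolide and 1371 ± 649 in dexfenfluramine valves (SD, n = 5).

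FHL2, the LIM-domain protein, had far fewer reads, between 88 and 571 in each valve, with a counting error of up to 10.7%. Its non-treated valves were the most spread of any group, at 206, 138, 24.8, 163 and 84.2 CPM. The serotonin valves had 34.2, 51.3, 64.6, 94.9 and 44.4 CPM, the pergolide valves 88.9, 50.6, 84.1, 42.7 and 29.9 CPM, and the dexfenfluramine valves 49.5, 31.9, 15.8, 51.4 and 69.4 CPM. Non-treated replicates 1, 2 and 4 lay above every treated valve, whereas non-treated replicate 3 lay below all treated valves except dexfenfluramine replicate 3. PKP2, the desmosomal gene, stood at 93.4, 87.0, 50.0, 149 and 98.3 CPM in the non-treated valves and at 47.1, 91.2, 66.0, 86.3 and 63.8 CPM in the serotonin valves. It stood at 68.4, 77.9, 94.2, 52.2 and 52.8 CPM in the pergolide valves and at 78.3, 58.9, 16.7, 55.5 and 83.2 CPM in the dexfenfluramine valves. Dexfenfluramine replicate 3 had the lowest PKP2 of the 20 valves. Mean FHL2 was 123 ± 70.5, 57.9 ± 23.5, 59.2 ± 26.0 and 43.6 ± 20.4 CPM and mean PKP2 95.5 ± 35.3, 70.9 ± 18.0, 69.1 ± 17.7 and 58.5 ± 26.2 CPM in non-treated, serotonin, pergolide and dexfenfluramine valves (SD, n = 5), and the 3 treated groups did not differ beyond that spread.

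All 5 genes had lower fitted levels in each treated group than in the non-treated valves under TMM scaling, and with both drugs TNNT2 had the lowest value; without scaling factors TTN and PKP2 with pergolide and TNNT2 with serotonin came out above 0, at 0.09, 0.06 and 0.08. TNNT2 with serotonin was also above 0 without non-treated replicate 1 (0.21), serotonin replicate 1 (0.06) or serotonin replicate 3 (0.14). With 4 variables estimated by svaseq in the limma-voom fit, TNNT2 (0.25), RYR2 (0.02), FHL2 (0.06) and PKP2 (0.04) were above 0 with serotonin, and RYR2 with pergolide (0.08). In that fit RYR2 (0.10) and FHL2 (0.05) were also above 0 with dexfenfluramine, and TTN came to -0.06 with pergolide and -0.03 with serotonin. With pergolide the log2 difference of TNNT2 was -2.27 (SE 0.45), a 4.82-fold lower level, beside -0.44 (0.37) for TTN, -0.57 (0.41) for RYR2, -1.05 (0.44) for FHL2 and -0.46 (0.31) for PKP2. With dexfenfluramine it was -2.79 (SE 0.46), 6.90-fold lower, beside -0.89 (0.38) for TTN, -1.11 (0.41) for RYR2, -1.48 (0.44) for FHL2 and -0.70 (0.31) for PKP2. With serotonin the order was another: TNNT2 differed by -0.07 (SE 0.43), TTN by -0.53 (0.37), RYR2 by -0.59 (0.41), FHL2 by -1.08 (0.44) and PKP2 by -0.43 (0.32). The 3 treatments share the same non-treated valves, so these values are not independent of one another. Leaving out a valve took TTN to between -0.62 and -0.27 with pergolide and to between -0.70 and -0.35 with serotonin. It took PKP2 to between -0.63 and -0.26 with pergolide and to between -0.60 and -0.21 with serotonin. TNNT2 had the 17th lowest difference of all 8683 genes with pergolide and the 7th lowest with dexfenfluramine. In bulk tissue, fewer cardiomyocytes and less RNA per cardiomyocyte cannot be told apart.

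As background, edgeR's quasi-likelihood test at a Benjamini-Hochberg adjusted p under 0.05 called 1105 genes (12.7%) lower and 1052 (12.1%) higher with pergolide than without treatment. With dexfenfluramine it called 1335 (15.4%) lower and 1175 (13.5%) higher, and with serotonin 13 (0.150%) lower and 90 (1.04%) higher. Without scaling factors it called 87 lower and 2288 higher with pergolide and 118 lower and 4983 higher with dexfenfluramine. The serotonin total of 103 went to between 0 and 257 on leaving out a valve, with 0 without non-treated replicate 2 or 5 or serotonin replicate 1 and 257 without non-treated replicate 3 (edgeR; 1372 genes had an unadjusted p under 0.05, DESeq2 called 234 and limma-voom 114 with all valves). TNNT2 was among the genes called lower with pergolide, and TNNT2, RYR2 and FHL2 were among those with dexfenfluramine, but as these comparisons chose the genes nothing is read from that. Dexfenfluramine replicate 3 carried part of the dexfenfluramine values: without it TTN differed from the non-treated valves by -0.64, TNNT2 by -2.53, RYR2 by -0.85, FHL2 by -1.27 and PKP2 by -0.46.

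How far TTN, RYR2, FHL2 and PKP2 lay below the non-treated valves changed little between TMM and other scaling factors and much without any: TTN with dexfenfluramine was at -0.91 with DESeq2 size factors, -0.85 with upper-quartile factors and -0.92 without the most abundant gene. TNNT2 was lower with both drugs under every scaling tried. Without scaling factors, using library totals alone, the median of all genes moved to 0.46 on the log2 scale with pergolide and to 0.70 with dexfenfluramine, against 0.02 and 0.03 with TMM. On that scale RYR2 differed by -0.04 with pergolide, FHL2 by -0.46 and TNNT2 by -1.72, and with dexfenfluramine TTN differed by -0.18, PKP2 by -0.0049, RYR2 by -0.40, FHL2 by -0.72 and TNNT2 by -2.07. Relative to the median of all genes, the unscaled values with pergolide were -0.37 for TTN, -0.40 for PKP2, -0.50 for RYR2, -0.92 for FHL2 and -2.18 for TNNT2, and with dexfenfluramine -0.88, -0.70, -1.10, -1.42 and -2.77. As a share of all reads, TTN took 5.59% ± 0.715 in non-treated, 4.41% ± 0.533 in serotonin, 5.97% ± 1.02 in pergolide and 4.93% ± 1.83 in dexfenfluramine valves (SD, n = 5). TNNT2 took 0.231% ± 0.0702, 0.244% ± 0.0939, 0.0701% ± 0.0138 and 0.0549% ± 0.0290 in the same order. The TMM factors ran from 0.58 in non-treated replicate 4 to 1.72 in dexfenfluramine replicate 3, and the most abundant gene, which has no symbol here, took 48.1% and 20.3% of the reads in those valves. In the fit with svaseq variables, the differences of TTN, RYR2, FHL2 and PKP2 from non-treated valves with dexfenfluramine came to -0.05, 0.10, 0.05 and -0.03, and that of TNNT2 to -1.59.

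The comparison of each drug with serotonin contrasts groups other than the non-treated one, but all 20 valves share the scaling, the filter and the estimate of spread. The drug valves also entered the choice of the genes, and TNNT2 was singled out for its low values in them, so its difference from serotonin is given as a description with no p. TNNT2 was lower with pergolide than with serotonin by a log2 difference of -2.20 (SE 0.45, 95% interval -3.14 to -1.26). It was lower with dexfenfluramine than with serotonin by -2.72 (SE 0.46, interval -3.68 to -1.76). These were the 22nd and the 15th lowest differences of all genes tested. In 31 alternative fits the pergolide difference stayed between -2.41 and -1.64 and the dexfenfluramine difference between -3.04 and -1.83.

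The other 4 genes, TTN, RYR2, FHL2 and PKP2, were chosen on the same valves, so their differences from serotonin are also given with no p. With pergolide, TTN differed from serotonin by 0.09 (95% interval -0.69 to 0.86) and RYR2 by 0.02 (-0.83 to 0.87). FHL2 differed by 0.03 (-0.89 to 0.95) and PKP2 by -0.03 (-0.69 to 0.62). With dexfenfluramine, TTN differed by -0.36 (-1.13 to 0.42), RYR2 by -0.52 (-1.37 to 0.33), FHL2 by -0.41 (-1.34 to 0.53) and PKP2 by -0.27 (-0.93 to 0.39). Without scaling factors the dexfenfluramine values were 0.16, 0.02, 0.09 and 0.24, and the pergolide values 0.44, 0.38, 0.36 and 0.31, where the median of all genes moved to 0.57 and 0.35. Without dexfenfluramine replicate 3 the scaled dexfenfluramine values of TTN, RYR2, FHL2 and PKP2 were -0.11, -0.26, -0.19 and -0.04. With svaseq variables the dexfenfluramine values were -0.02, 0.09, -0.0017 and -0.07 in the same order. Of all genes, 15.1% were called lower and 12.4% higher with pergolide and 16.4% lower and 13.9% higher with dexfenfluramine.

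Between dexfenfluramine and pergolide the 5 genes are likewise described with no p, as these valves entered their choice. The log2 differences were -0.45 for TTN (95% interval -1.22 to 0.33), -0.52 for TNNT2 (-1.42 to 0.39) and -0.54 for RYR2 (-1.39 to 0.31). FHL2 differed by -0.44 (-1.36 to 0.48) and PKP2 by -0.24 (-0.89 to 0.41). Without dexfenfluramine replicate 3 the 5 differences were -0.20, -0.26, -0.28, -0.22 and -0.0009 in that order. With svaseq variables TTN (0.01), RYR2 (0.03), FHL2 (0.11) and PKP2 (0.19) were above 0 and TNNT2 was at -0.19. edgeR called no gene of the whole table in this comparison (0.00% lower, 0.00% higher), where 613 of 8683 genes had an unadjusted p under 0.05, DESeq2 called 4 and limma-voom 0. The lack of edgeR calls does not show that the drugs act alike on these genes.

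The ratio of TNNT2 reads to TTN reads within a valve does not depend on library scaling. For each 1000 reads of TTN, the non-treated valves had 61.6, 39.0, 40.3, 32.3 and 34.0 reads of TNNT2 and the serotonin valves 51.4, 78.4, 27.3, 49.5 and 67.9. The pergolide valves had 11.01, 10.2, 12.3, 9.46 and 16.8, and the dexfenfluramine valves 8.48, 8.95, 10.1, 17.4 and 10.2. Every drug valve lay below every other valve, and dexfenfluramine replicate 3, so low in all 5 genes, was in the middle of its group for this ratio. TNNT2 was chosen for its fall and no share of all genes is at hand for this ratio, so nothing is read from the separation. RYR2 had 39.1 ± 4.72 reads for each 1000 of TTN in non-treated, 37.0 ± 4.26 in serotonin, 35.4 ± 5.09 in pergolide and 32.9 ± 4.02 in dexfenfluramine valves (SD, n = 5). PKP2 had 1.29 ± 0.15, 1.39 ± 0.16, 1.27 ± 0.13 and 1.48 ± 0.18, and FHL2 1.54 ± 0.65, 1.13 ± 0.35, 1.05 ± 0.29 and 1.15 ± 0.32 in the same order, so for these 3 genes the groups overlapped.

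**Figure D2:**
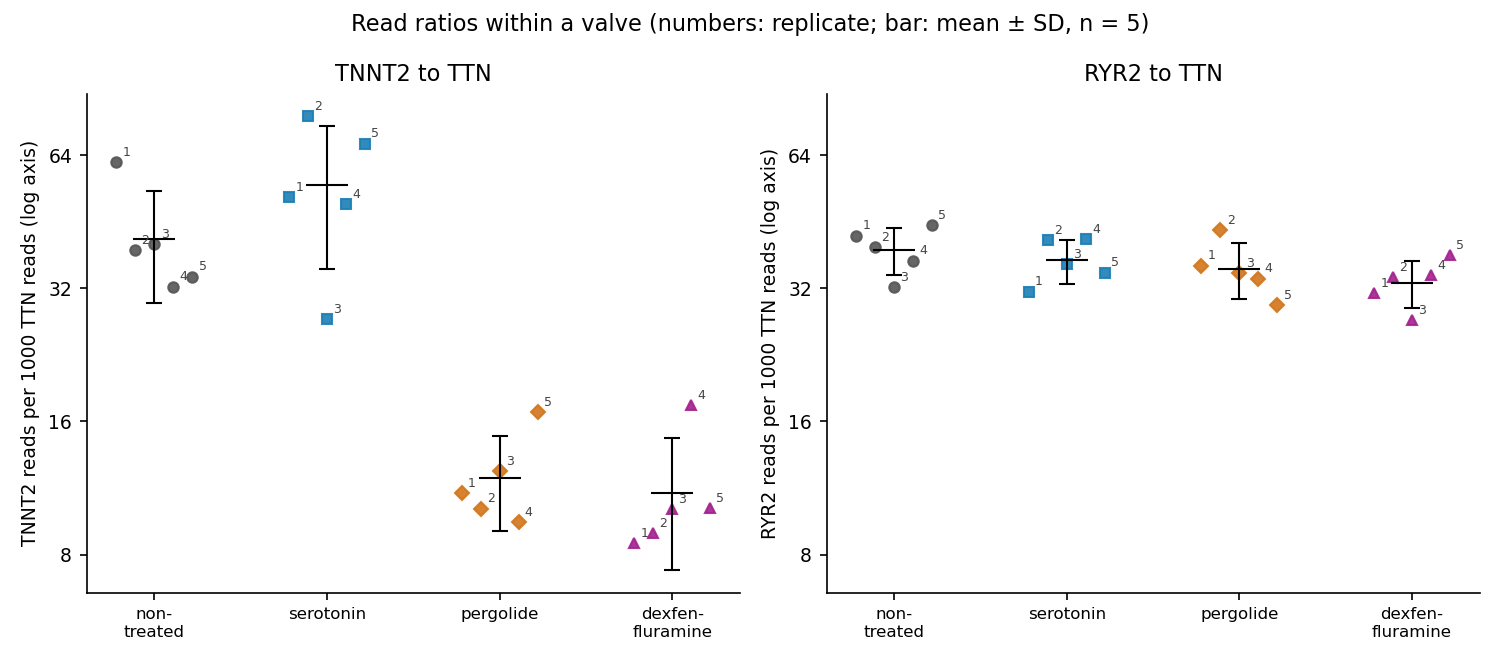
Reads of TNNT2 (left) and RYR2 (right) for each 1000 reads of TTN in the same valve, on log axes of equal range, by group; points are valves with their replicate number, bars the mean and SD of 5 valves. For TNNT2 the drug valves lie between 8.48 and 17.4 and the other valves between 27.3 and 78.4, while for RYR2 all groups lie between 27.1 and 44.4.

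The gap of TNNT2, its log2 CPM minus the mean log2 CPM of TTN, RYR2, FHL2 and PKP2 in the same valve, gave the same division as the ratio. It was 1.76, 1.16, 1.61, 0.97 and 1.01 in the non-treated valves, 1.88, 2.47, 0.63, 1.60 and 2.16 in the serotonin valves, -0.50, -0.47, -0.33, -0.63 and 0.30 in the pergolide valves and -0.74, -0.67, -0.70, 0.25 and -0.75 in the dexfenfluramine valves. The lowest value without a drug, serotonin replicate 3, lay above the highest with one, pergolide replicate 5. Group means were 1.30 ± 0.36 in non-treated, 1.75 ± 0.70 in serotonin, -0.33 ± 0.36 in pergolide and -0.52 ± 0.43 in dexfenfluramine valves (SD, n = 5). The mean gap was thus 1.63 lower on the log2 scale with pergolide than without treatment (difference -1.63), and the difference was -1.82 with dexfenfluramine and 0.44 with serotonin, beside a pooled SD within groups of 0.48. The serotonin difference ran from 0.26 to 0.72 on leaving out a valve and from 0.17 to 0.45 under other settings. TNNT2 was singled out for its low values, so the gap is a description and was not tested.

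**Figure D3:**
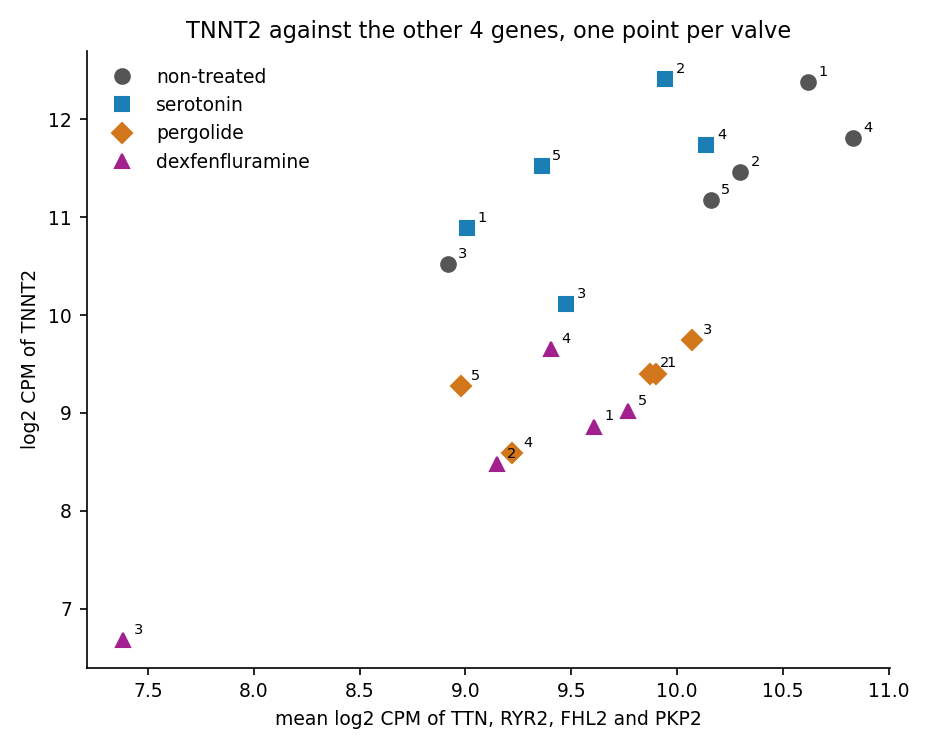
Log2 CPM of TNNT2 (vertical) against the mean log2 CPM of TTN, RYR2, FHL2 and PKP2 (horizontal), 1 point per valve with its replicate number, by group. At like values of the other 4 genes the pergolide and dexfenfluramine valves lie below the non-treated and serotonin valves, and dexfenfluramine replicate 3 is at the lower left at 7.38 and 6.68.

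Within groups, the 5 genes varied together from valve to valve. Each valve's deviation from its group mean of log2 CPM, which holds none of the differences between groups that chose the genes, was compared between genes over the 20 valves for 10 pairs. TTN and RYR2 had the highest correlation (Pearson r = 0.99, permutation p = 1e-05, the smallest that the permutations can give, adjusted 5e-05; Spearman rho = 0.95, p = 1e-05, adjusted 5e-05). TTN and PKP2 followed (r = 0.97, permutation p = 2e-05, adjusted 6.7e-05; rho = 0.95, p = 2e-05, adjusted 6.7e-05), and then RYR2 and PKP2 (r = 0.95, permutation p = 1e-05, adjusted 5e-05; rho = 0.91, p = 1e-05, adjusted 5e-05). Without the 2 valves farthest from the median, dexfenfluramine replicate 3 and non-treated replicate 3 in all 3 cases, these r were 0.97, 0.92 and 0.88.

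FHL2 also varied with TTN, RYR2 and PKP2. Its r was 0.81 with TTN (permutation p = 0.00014, adjusted 0.00035; rho = 0.79, p = 0.00012, adjusted 0.00024), 0.82 with RYR2 (permutation p = 0.00025, adjusted 0.00042; rho = 0.75, p = 0.00028, adjusted 0.00040) and 0.77 with PKP2 (permutation p = 0.00049, adjusted 0.00062; rho = 0.71, p = 0.0014, adjusted 0.0015). Without the 2 farthest valves these were 0.72, 0.71 and 0.63. The difference between these correlations and those of the other pairs was not tested.

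The relation of TNNT2 with TTN and RYR2 within groups passed the threshold under all changes tried, and that with FHL2 and PKP2 under some of them only. Its r was 0.85 with TTN (permutation p = 0.00020, adjusted 0.00040; rho = 0.82, p = 0.00011, adjusted 0.00024) and 0.83 with RYR2 (permutation p = 0.00050, adjusted 0.00062; rho = 0.81, p = 0.00018, adjusted 0.00030). It was 0.76 with PKP2 (permutation p = 0.0031, adjusted 0.0035; rho = 0.71, p = 0.0017, adjusted 0.0017) and 0.65 with FHL2 (permutation p = 0.0035, adjusted 0.0035; rho = 0.73, p = 0.00088, adjusted 0.0011). Without the 2 valves farthest on the first gene of each pair, TNNT2 had r of 0.70 with TTN, 0.755 with RYR2, 0.67 with PKP2 and 0.70 with FHL2. Without dexfenfluramine replicate 3 and non-treated replicate 3 together, the pair of TNNT2 with FHL2 had r = 0.40 (adjusted permutation p = 0.13) and the pair with PKP2 r = 0.435 (adjusted permutation p = 0.13), and without scaling factors the same pairs had r = 0.37 (adjusted permutation p = 0.12) and 0.52 (0.19) over all 20 valves, so these relations did not hold under either change. The deviation of TNNT2 changed by 0.95 for each unit of the mean deviation of the other 4, and by 0.82 without dexfenfluramine replicate 3.

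Other genes had deviations like the mean of the 5. Over the 20 valves, the highest Pearson r among the 3455 tested genes with a symbol, which come from the study's lists of changed genes, were those of MYOM1, which crosslinks the M-band (0.99), PPP1R12B, a myosin phosphatase subunit (0.99), PLN, the inhibitor of the calcium pump (0.99), ACTN2, the Z-disc actinin (0.98), PDE4DIP (0.98), ACTC1, cardiac actin (0.98), ANK3 (0.98), GOT1 (0.98), MYH7B (0.98) and CMYA5 (0.98). Of all 8683 genes, 251 had r above 0.9 with the mean of the 5, and the median r was -0.02. For TNNT2 alone, the highest r were those of RRAGD (0.96), RBM20, a regulator of titin splicing (0.95), NEBL, a nebulin-like protein (0.94), RAB33A (0.93) and ACADM, an enzyme of fatty acid oxidation (0.93), and 15 genes passed 0.9. Their differences between groups were smaller than that of TNNT2: with pergolide against serotonin, RRAGD differed by -0.22 (edgeR adjusted p = 0.63), RBM20 by -0.41 (0.37), NEBL by -0.65 (0.094) and ACADM by -0.50 (0.087), and RAB33A, at a mean of 1.65 CPM, by 1.30 (0.045). With dexfenfluramine against serotonin NEBL at -1.08 (edgeR adjusted p = 0.0068) and ACADM at -0.86 (0.0045) were lower, and RRAGD differed by -0.55 (0.20), RBM20 by -0.52 (0.23) and RAB33A by 1.001 (0.12).

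Lists of other cardiomyocyte genes give the setting. The 8 lists hold 114 genes without the 5, of which 64 could be matched to a symbol and 63 were tested. Symbols came from lists of genes that the study found to differ in these valves, so the matched genes were themselves chosen on these samples and their counts are not independent evidence of a direction. The shares of all genes set beside these counts, here and below, also cover genes without a symbol and are not a like background. Against non-treated valves, 30 of the 63 were called lower and 3 higher with dexfenfluramine, 8 lower and 4 higher with pergolide, and none with serotonin, where among all genes 15.4% and 13.5%, 12.7% and 12.1%, and 0.150% and 1.04% were called lower and higher (edgeR; 1372 of all 8683 genes had an unadjusted p under 0.05 there, and DESeq2 called 234 genes of the whole table and limma-voom 114). Their median log2 differences were -0.86, -0.50 and -0.38, beside medians over all genes of 0.03, 0.02 and 0.01. No list gene was lower than TNNT2 in either drug: the lowest were TNNC1, cardiac troponin C, with dexfenfluramine at -1.84 (SE 0.49) and MYH7B with pergolide at -1.32.

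Against serotonin, 3 of the 63 list genes were called lower and 3 higher with pergolide, with a median of -0.06 beside 0.03 for all genes, of which 15.1% were called lower and 12.4% higher. With dexfenfluramine 9 were lower and 3 higher, with a median of -0.41 beside 0.03 for all genes, of which 16.4% were called lower and 13.9% higher. NEXN, which encodes the Z-disc protein nexilin, came nearest to TNNT2, with -1.27 against serotonin for pergolide (edgeR adjusted p = 0.0011) and -1.63 for dexfenfluramine (adjusted p = 0.00010), and a difference of 0.23 for serotonin against non-treated valves. NEXN was named after its values were seen and has a symbol only through the study's lists, so nothing is read from its p. It was the 1 gene of the 63 (1.59%) for which all 10 drug valves lay below all others, beside 4.80% of all genes.

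On the thin filament itself, the tested neighbours of TNNT2 had smaller differences. Of 6 tested genes of that list, 5 were called lower with dexfenfluramine and 1 with pergolide against non-treated valves (medians -0.98 and -0.55), beside 15.4% and 12.7% of all genes. None was called against serotonin with pergolide and 2 were lower with dexfenfluramine, NEBL at -1.08 (edgeR adjusted p = 0.0068) and LMOD2 at -1.16 (0.015), beside 15.1% and 16.4% of all genes called lower. TNNC1, which binds calcium in the troponin complex, differed from serotonin by -0.38 (edgeR adjusted p = 0.60) with pergolide and -1.04 (0.11) with dexfenfluramine. TPM1, tropomyosin, differed by -0.03 (0.96) and -0.45 (0.30), and ACTC1 by 0.31 (0.58) and -0.37 (0.49). TMOD1, which caps the filament, differed by 0.04 (0.87) and -0.15 (0.50). The troponin I genes TNNI3 and TNNI1 were not matched to a symbol and are not analysed here.

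Beside TTN, the thick-filament and M-band genes were mostly below the non-treated valves. For this and the following lists the shares of all genes called lower against non-treated valves were 15.4% with dexfenfluramine and 12.7% with pergolide, and 13.5% and 12.1% were called higher. Of 8 tested genes, 6 were called lower with dexfenfluramine and 2 with pergolide, and none against serotonin, where the medians were -0.18 for pergolide and -0.57 for dexfenfluramine. MYH7, the slow myosin heavy chain, differed from non-treated valves by -0.996 (SE 0.44) with pergolide and -1.45 (0.44) with dexfenfluramine, and MYL2, a myosin light chain, by -0.28 (0.56) and -0.92 (0.56). TRIM54 had the lowest value of this list with dexfenfluramine, -1.49. In the Z-disc list, where FHL2 and NEXN have their partners, 7 of 18 were called lower with dexfenfluramine and none higher, and 2 lower and 1 higher with pergolide. SMPX had the lowest value with dexfenfluramine, -1.59 (SE 0.37), and PDLIM3 the highest, 0.36 (0.20), while ACTN2 differed by -1.01 (0.38) and ANKRD1 by -0.63 (0.33).

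Among the calcium-handling genes around RYR2, 2 of 8 were called lower with dexfenfluramine against non-treated valves and none with pergolide, beside 15.4% and 12.7% of all genes. PLN differed by -0.78 (SE 0.35) with pergolide and -1.24 (0.35) with dexfenfluramine, CASQ2, calsequestrin, by -0.15 (0.30) and -0.50 (0.305), and CAMK2D by 0.26 (0.11) and 0.08 (0.11). Of the 9 tested genes of the intercalated disc, where PKP2 acts, 4 were called lower and 2 higher with dexfenfluramine, beside 15.4% and 13.5% of all genes, and 1 lower and 2 higher with pergolide, beside 12.7% and 12.1%. DSP, desmoplakin, differed by -0.79 (SE 0.36) and -1.07 (0.36), CDH2, N-cadherin, by -0.64 (0.26) and -0.95 (0.26), and TMEM43 by 0.36 (0.13) and 0.55 (0.13). PKP2 lay between these genes with both drugs.

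The remaining lists were small. Of the list of ion channels and natriuretic peptides 5 of 15 genes were tested, KCNJ2, KCNIP2, CORIN, BVES and TNNI3K, none of which encodes a natriuretic peptide. Of these, 2 were called lower with dexfenfluramine against non-treated valves, KCNJ2 at -1.14 (SE 0.38) and CORIN at -0.98 (0.37), and TNNI3K differed by -0.54 (0.34). Of 4 genes of muscle energy supply, 1 was called lower, PPARGC1A at -1.21, while MB, myoglobin, differed by -1.50 (0.58), FABP3 by -1.13 (0.46) and PGAM2 by -0.64 (0.30). Of 5 cardiac transcription factors, 3 were called lower and 1 higher with dexfenfluramine, MYOCD, myocardin, having the lowest value at -1.09 (0.31), GATA4 the highest at 0.62 (0.17), MEF2C -0.61 (0.19) and TBX20 0.26 (0.14). With pergolide 2 of these factors were called lower and 1 higher.

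**Figure D4:**
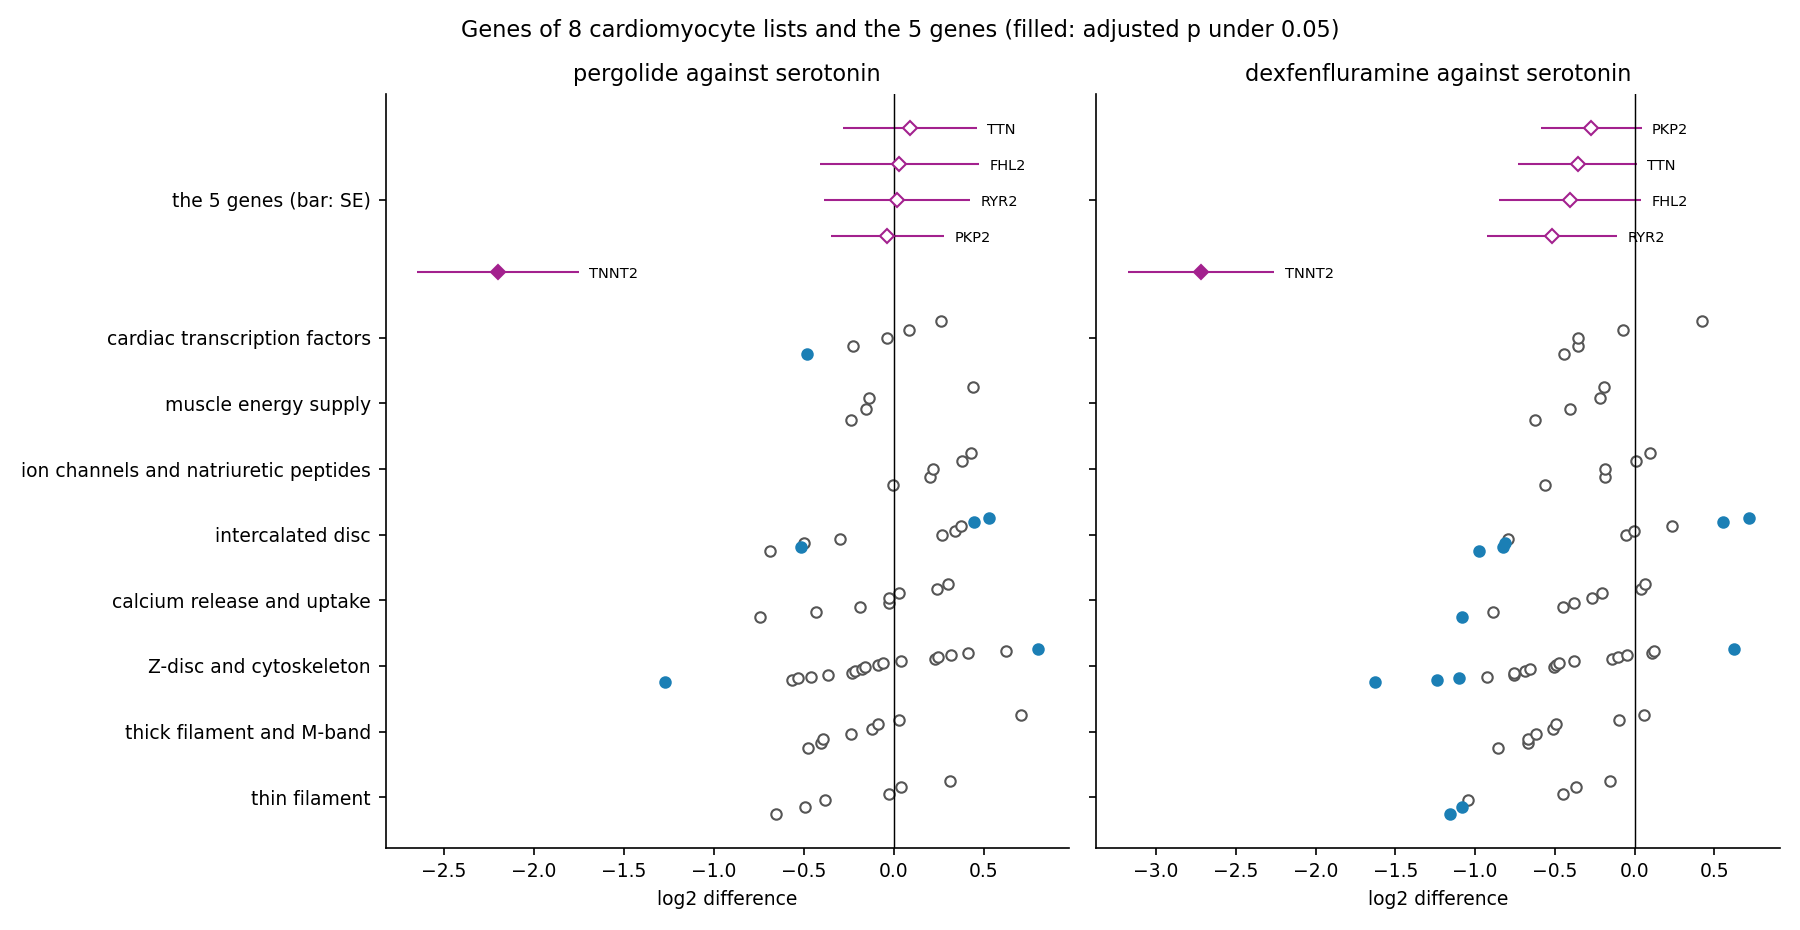
Log2 differences of pergolide (left) and dexfenfluramine (right) against serotonin for the tested genes of 8 cardiomyocyte lists and, on top, the 5 genes with their SE. Filled symbols have an edgeR adjusted p under 0.05, given as a description only, and nothing is read from it for the 5 genes. TNNT2, at -2.20 and -2.72, lies to the left of every list gene, the next being NEXN at -1.27 and -1.63, while TTN, RYR2, FHL2 and PKP2 lie within the lists.

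The summed level of the 63 list genes, with MYH7 the most abundant at a mean of 14246 CPM, was 50542 ± 19646 CPM in non-treated, 36301 ± 9870 in serotonin, 30890.4 ± 9099 in pergolide and 22552 ± 9877 in dexfenfluramine valves (SD, n = 5). Its lowest value, 6052 CPM, was that of dexfenfluramine replicate 3. The summed markers of interstitial cells or fibroblasts were in the opposite order. Of 10 markers 7 were tested, with VIM the most abundant, and their sum was 7064 ± 1125, 7804 ± 754, 9634 ± 1499 and 10293 ± 1344 CPM in the same order of groups. Against non-treated valves, 5 of the 7 were called higher with pergolide and 4 with dexfenfluramine, beside 12.1% and 13.5% of all genes. These markers too had a symbol only through the study's lists of changed genes, so their counts are not independent evidence of a direction. COL1A1, which encodes a collagen chain and was named after its values were seen, differed from serotonin by 0.62 (edgeR adjusted p = 0.059) with pergolide and 0.70 (0.030) with dexfenfluramine. Against serotonin 3 of the 7 were called higher with pergolide and 4 with dexfenfluramine, beside 12.4% and 13.9% of all genes. COL1A2 differed by 0.47 (edgeR adjusted p = 0.043) and 0.53 (0.022), COL3A1 by 0.67 (0.0043) and 0.62 (0.0070) and FBN1, fibrillin, by 0.50 (0.0028) and 0.55 (0.0011), all named after their values were seen, as was LUM, lumican, at 0.28 (0.23) and -0.30 (0.20). VIM, vimentin, differed by -0.01 (0.98) and 0.44 (0.094), and DCN, decorin, by 0.19 (0.34) and -0.02 (0.94). The part of a changed share of muscle in the differences of TTN, RYR2, FHL2 and PKP2 was not tested.

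**Figure D5:**
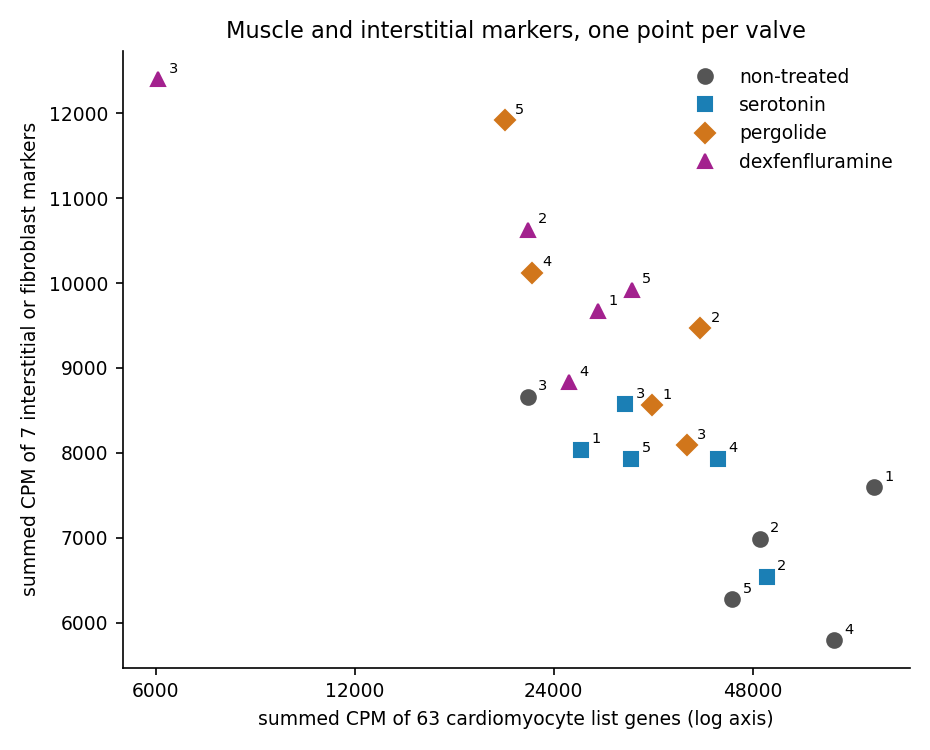
Summed CPM of 7 interstitial cell or fibroblast markers (vertical, axis not starting at 0) against the summed CPM of 63 cardiomyocyte list genes (horizontal, log axis), 1 point per valve with its replicate number, by group. Dexfenfluramine replicate 3, at 6052 and 12405 CPM, is at the upper left, and non-treated replicate 4, at 63664 and 5800 CPM, is at the lower right.

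Few markers of other cells could be tested, because symbols came only from the study's lists of changed genes. Their number and levels do not show how common these cells were. Both ventricular markers that could be tested, MYH7 and MYL2, were present, while none of 8 atrial and none of 6 erythroid markers had a symbol here, so the kind of cardiomyocyte was not tested. MYH2, the 1 skeletal muscle marker of 14 that was tested, averaged 3.93 CPM, and it was lower with pergolide than with serotonin (log2 difference -2.001, edgeR adjusted p = 0.0027) and with dexfenfluramine (-1.62, adjusted p = 0.0091). Of the smooth muscle markers, MYH11 at a mean of 35.2 CPM differed from serotonin by -0.55 (edgeR adjusted p = 0.25) with pergolide and -1.41 (0.0052) with dexfenfluramine, and TAGLN at 3.38 CPM by 1.12 (0.027) and 1.49 (0.0033). The endothelial markers PECAM1 and EMCN were lower with pergolide than with serotonin by -0.83 (edgeR adjusted p = 0.0045) and -0.88 (0.00081). With dexfenfluramine they differed from serotonin by -0.42 (0.13) and -0.63 (0.0096). The macrophage markers C1QA and C1QB averaged 13.1 and 11.7 CPM, the adipocyte markers ADIPOQ and LEP 49.9 and 3.91 CPM, and the Schwann cell markers CDH19 and S100B 40.0 and 17.2 CPM. Against non-treated valves C1QA (1.45, edgeR adjusted p = 0.0090), ADIPOQ (1.46, 0.043) and LEP (2.25, 0.024) were higher and S100B (-0.94, 0.033) lower with pergolide, and C1QB was higher with dexfenfluramine than with serotonin (1.09, 0.017). The summed endothelial level was 266 ± 77.8, 296 ± 32.9, 165 ± 39.7 and 214 ± 35.2 CPM in non-treated, serotonin, pergolide and dexfenfluramine valves (SD, n = 5). Their part in the values of the 5 genes was not tested.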

How the data were processed

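The authors deposited raw read counts, whole numbers for each Ensembl gene, with no normalization. They depleted ribosomal RNA, made stranded libraries, aligned reads to the rabbit genome oryCun2 with TopHat2 2.1.1 and counted them with HTSeq in union mode; the submitters' notes also name Picard. The strand setting, the annotation release and the handling of reads with several alignments are not given in the sources used here, so reads shared with overlapping or near-identical genes cannot be set apart; in a RefSeq table of another assembly TTN, RYR2 and FHL2 overlap other annotated genes and TNNT2 and PKP2 do not.

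All 20 columns were assigned to samples by letter and number. Counts were scaled by TMM, filtered by filterByExpr and fitted for all 20 valves with edgeR 4.0.16 (R 4.3.3), and p-values were adjusted by Benjamini-Hochberg with a threshold of 0.05. Intervals are 95% intervals of the fit. The fit was tested on simulated data. DESeq2 1.42.0, limma 3.58.1 and sva 3.50.0 were alternatives. Log2 CPM used a prior count of 2. Correlations of deviations from group means used 100000 two-sided permutations within groups (Python 3.11.15, numpy 2.4.6, scipy 1.17.1, pandas 2.3.3, matplotlib 3.10.9). Counting errors cover the sampling of reads only.

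Symbols were taken from identifiers printed with the study's lists of changed genes, which matched 3518 genes; 270 shortened identifiers were not matched. Genes named are the 5, the 2 most abundant of each list, in muscle lists also the lowest and the highest with dexfenfluramine, and the 10 and 5 with the most similar deviations; others are said to have been named after their values were seen. LMOD2, PPARGC1A, KCNIP2 and BVES are such genes too. As the same valves chose the genes with a symbol, edgeR adjusted p-values of named genes are descriptions only. The members and lists were chosen with earlier results of these data known. Promoter motifs were not searched.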

Additional observations from a re-analysis of the deposited data

Results flagged for a closer look

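Among 36 sets of 5 valves examined, 6 had a valve whose gap to its nearest neighbour was a large part of the range of its group. Chance alone marks about 1 set in 20, but genes that vary together do not give independent sets, so the count is not read against that rate. Dexfenfluramine replicate 3 was far below the other valves of its group for TTN (log2 CPM 13.30, with a gap of 0.81 of the range), RYR2 (8.10, gap 0.82) and PKP2 (4.10, gap 0.75). Non-treated replicate 3 was far below its group for RYR2 (10.20, gap 0.72). The gap of TNNT2 to the other 4 genes was far higher in dexfenfluramine replicate 4 than in the rest of its group (0.25, gap 0.92), and the total count was far higher in pergolide replicate 2 (5921025, gap 0.75). The cause was not tested.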

How the results depend on the processing

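TNNT2 differed from serotonin in the same direction under all 31 alternatives, by -2.41 to -1.64 with pergolide and by -3.04 to -1.83 with dexfenfluramine. The low TNNT2 of these drug valves entered the choice of the genes, so this is a description and no p is read from it. For the same reason no p is read for TTN, RYR2, FHL2 and PKP2. With pergolide they ran from -0.04 to 0.44, -0.16 to 0.38, -0.16 to 0.36 and -0.26 to 0.31 against serotonin. With dexfenfluramine they ran from -0.52 to 0.16, -0.68 to 0.09, -0.64 to 0.09 and -0.44 to 0.24. The gap of TNNT2 moved by less than the spread between valves in all 102 recomputed values. Use of library totals without scaling, TTN alone as comparison gene and the joint removal of 2 valves were chosen after seeing the data.

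Without scaling, differences from serotonin with dexfenfluramine reversed for TTN (0.16), RYR2 (0.0182), FHL2 (0.0941) and PKP2 (0.24), and with pergolide for PKP2 (0.31), where TTN rose to 0.44, RYR2 to 0.38 and FHL2 to 0.36; from non-treated valves with dexfenfluramine TTN moved to -0.18 and PKP2 to -0.0049. With svaseq variables, differences from non-treated valves with dexfenfluramine were -0.0513 for TTN, -1.59 for TNNT2, 0.10 for RYR2, 0.0549 for FHL2 and -0.0305 for PKP2. With pergolide they were -1.39 for TNNT2, -0.0545 for FHL2 and 0.0775 for RYR2, and with serotonin 0.0566 for FHL2, 0.25 for TNNT2, 0.0153 for RYR2 and 0.0390 for PKP2. Against serotonin they were -0.0358 for TTN and -0.11 for FHL2 with pergolide and 0.0889 for RYR2 with dexfenfluramine, and between the drugs 0.0134 for TTN, 0.0266 for RYR2, 0.11 for FHL2 and 0.19 for PKP2. By limma-voom FHL2 differed by -0.0021 between pergolide and serotonin. Leaving out a valve took that comparison to between -0.0118 and 0.21 for TTN, -0.16 and 0.18 for RYR2, -0.16 and 0.27 for FHL2 and -0.17 and 0.0598 for PKP2. The cause was not tested.

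Genes called between serotonin and non-treated valves, 103 by edgeR, came to 53 with DESeq2 size factors, 37 without the most abundant gene, 2 without scaling, 48 with no filter, 58 with at least 10 counts in every valve, 234 by DESeq2 and 0 in a fit of those groups alone (1372 had an unadjusted p under 0.05 in the fit of all groups, and limma-voom called 114). Leaving out a valve gave between 0 and 257, with 0 without non-treated replicate 2 or 5 or serotonin replicate 1 and 257 without non-treated replicate 3. With svaseq variables the calls were 1156 for pergolide and 987 for dexfenfluramine against non-treated valves, and 1506 and 1381 against serotonin. Without scaling they were 5101 for dexfenfluramine against non-treated valves (4983 higher, 118 lower) and 1592 for pergolide against serotonin (1360 higher, 232 lower), and the split was 2288 higher and 87 lower for pergolide against non-treated and 3649 higher and 204 lower for dexfenfluramine against serotonin. For serotonin against non-treated the split was 55 and 19 with upper-quartile factors and 28 and 9 without the most abundant gene. Between the drugs DESeq2 called 4. The cause was not tested.

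Of 260 recomputed correlations 256 kept an adjusted p under 0.05. TNNT2 with FHL2 had r = 0.37 (permutation adjusted p = 0.12) without scaling and 0.40 (0.13) without dexfenfluramine replicate 3 and non-treated replicate 3; TNNT2 with PKP2 had 0.52 (0.19) and 0.435 (0.13). The cause was not tested.

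Of 30 same-numbered pairs of valves 6 had a correlation over 0.1 (range -0.34 to 0.49), all among the non-treated, serotonin and dexfenfluramine valves numbered 3 (0.15, 0.49, 0.19) and 4 (0.22, 0.21, 0.11), and 2 valves fitted best with their own number. With replicate as a block, 1 gene was called for serotonin against non-treated, 1988 for pergolide and 2365 for dexfenfluramine, 2228 and 2485 against serotonin, and none between the drugs (edgeR, 613 at an unadjusted p under 0.05 without a block). TNNT2 then differed from serotonin by -1.96 and -2.75, and PKP2 with pergolide by 0.0155. Promoter motifs were not searched, as no promoter sequences were at hand.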
